A study of Homo sapiens with 12 samples.

Results

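A set of 10 genes of the NOTCH pathway were followed across 12 RNA-seq libraries of HK-2 cells, an immortalised line from human proximal tubule epithelium. The set holds 2 ligands (JAG1, JAG2), 3 receptors (NOTCH1, NOTCH2, NOTCH3) and 5 genes known as targets of the pathway (NRARP, HES1, HES4, HEY1, HEYL). They were matched by symbol to the Ensembl identifiers of the count tables, which found all 10 members among 40649 genes. All 10 members also passed the filter on low counts that left 19268 genes for testing.

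The libraries form 3 groups of 4. ShNC cells carried a control short hairpin RNA and received no treatment. H2O2 cells carried the same control hairpin and received hydrogen peroxide, an oxidant, at 150 µM for 48 h. YH cells are labelled as a knockdown of YAP1, the transcriptional co-activator of the Hippo pathway, with the same hydrogen peroxide treatment. Libraries with the YAP1 hairpin and no hydrogen peroxide were not analysed here, so a difference between YH and H2O2 is one between hairpins under the oxidant. Nothing in the labels says that the 4 libraries of a group are separate cultures. The p-values below therefore cover the spread among these libraries only, which may be technical.

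NOTCH receptors are single-pass membrane proteins that are cleaved when a ligand of the Delta or Jagged family on a neighbouring cell binds them. The freed intracellular part moves to the nucleus, joins the DNA-binding protein RBPJ and a Mastermind co-activator, and switches on target genes, among them repressors of the HES and HEY families. In kidney tubules the pathway is known from nephron patterning in development and from its return in injured epithelium, where JAG1 is a ligand often described. JAG1 is also known as a target of YAP in several tissues.

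Total counts ran from 30789997 to 46582873 per library, so the 3 counts taken as the floor of detection correspond to 0.0644 to 0.0974 CPM, the count scaled to the size of the library. ShNC replicate 4 and YH replicate 3 stood apart, since mitochondrially encoded genes took 13.9% and 11.3% of their counts, while they took 4.54% to 5.64% elsewhere. Results on the 10 members whose call changes without this pair are given both ways. YAP1 had 124 to 140 CPM in ShNC, 151 to 164 CPM in H2O2 and 111 to 136 CPM in YH. It was lower in YH than in H2O2 (log2 difference -0.29 ± 0.07 SE, edgeR adjusted p = 0.00346) and did not pass the test between YH and ShNC (-0.05 ± 0.07, 95% interval -0.20 to 0.10, adjusted p = 0.636). The knockdown label therefore shows only against the H2O2 group, and YH below stands for the libraries labelled as the knockdown. Of 9 proximal tubule markers 3 averaged at least 1 CPM, with PAX8 the highest, and LRP2, CUBN, AQP1, ANPEP and HNF4A did not. The summed level of the 9 was 421 to 458 CPM in ShNC, 239 to 265 CPM in H2O2 and 299 to 385 CPM in YH. Of 5 fibroblast markers 4 averaged at least 1 CPM, with LUM the highest and PDGFRA at 0 to 0.127 CPM, and their sum was 110 to 113 CPM in ShNC, 236 to 255 CPM in H2O2 and 143 to 172 CPM in YH. Markers of other nephron segments (UMOD at 0 in all libraries), endothelium and blood cells each summed to under 1 CPM in every library. Each sum is mostly 1 gene, PAX8 for the tubule and LUM for the fibroblast list, and the members of a list did not move together. With hydrogen peroxide PAX8 and SLC34A1 fell while GGT1 and SLC5A2 were not called, and LUM, COL1A1 and DCN rose while PDGFRB fell (log2 -0.72, edgeR adjusted p = 0.00391). The part of these markers in the results on the NOTCH genes was not tested.

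RBPJ recognises a core of the letters TGGGAA, which was searched on both strands in the 250 bases before the RefSeq start of each member (assembly GRCh38.p14). A promoter was found for 9 of the 10 members, HEY1 being the exception. The core occurred in HES1, HES4 and HEYL, against 20.8% of 35116 promoters of the same length, and in none of the windows of JAG1, JAG2, NOTCH1, NOTCH2, NOTCH3 and NRARP. The letters GGAATG, the core of the TEAD factors that YAP binds, occurred in none of the 9 members (11.9% of promoters), and neither did the E box CACGTG (6.34%). The letters CACNAG, an N box of the kind HES proteins bind, occurred in HES1 at 3 places and in NOTCH3 at 1 place (32.0% of promoters). No match overlapped another. A match is a description of letters and not evidence of binding. The 200 bases before the start are shown for JAG1 and NRARP, the 2 members with the largest rise under hydrogen peroxide, and for HES1, with TGGGAA in capitals. For HES4 the 30 bases around its single match are shown. All are written 5′ to 3′ on the gene's strand.
JAG1, chr20:10674000-10674199, minus strand: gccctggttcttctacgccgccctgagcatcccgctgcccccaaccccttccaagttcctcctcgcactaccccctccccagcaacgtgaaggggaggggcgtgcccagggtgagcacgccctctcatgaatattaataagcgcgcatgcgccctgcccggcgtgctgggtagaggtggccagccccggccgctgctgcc
NRARP, chr9:137302272-137302471, minus strand: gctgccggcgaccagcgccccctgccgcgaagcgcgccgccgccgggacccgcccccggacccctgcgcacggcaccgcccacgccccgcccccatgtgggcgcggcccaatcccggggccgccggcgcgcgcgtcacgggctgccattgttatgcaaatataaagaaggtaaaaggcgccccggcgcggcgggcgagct
HES1, chr3:194135948-194136147, plus strand: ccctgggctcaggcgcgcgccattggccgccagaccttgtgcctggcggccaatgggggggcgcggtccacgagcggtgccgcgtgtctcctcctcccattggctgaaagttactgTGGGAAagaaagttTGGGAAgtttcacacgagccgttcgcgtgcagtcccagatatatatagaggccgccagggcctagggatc
HES4, chr1:1000156-1000185, minus strand: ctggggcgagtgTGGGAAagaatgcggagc

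HES1 holds the core at 84 to 79 and again at 70 to 65 bases before its start, both on the strand of the gene. HES4 holds it at 76 to 71 bases before the start, on the same strand. In HEYL it lies at 178 to 173 bases on the opposite strand and at 99 to 94 bases on the strand of the gene. These distances are from the RefSeq start, and the GENCODE annotation used for gene positions differs. There all 30 bases around each HEYL match lie in exons, so the HEYL matches fall within the gene. Of the 30 bases shown for HES4, 17 lie in exons, and of the 200 shown for HES1, 3 do. HES1 and HES4, whose windows both hold the core on the strand of the gene, moved differently in the libraries, as the values below show.

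Under hydrogen peroxide 6 of the 10 members rose (JAG1, NOTCH1, NRARP, HES1, HEY1, HEYL), 2 fell (NOTCH2, NOTCH3) and 2 did not pass the test (JAG2, HES4), by edgeR's quasi-likelihood test with an adjusted p under 0.05. Of all genes tested 23.9% were called higher and 22.6% lower in the same comparison. The share of members called lower is near the background, and the share called higher is above it. The members were chosen with earlier results of these data known, so such shares describe the set and test nothing. The call of HEYL was lost in 10 of 20 alternative settings. The ranges of the 2 groups did not overlap for 7 of the 10 members, against 48.0% of all genes. The median log2 difference was 0.58 over the members and 0.00 over all genes. In YH against H2O2, 4 members were higher (JAG1, NOTCH2, NOTCH3, HES4), 4 lower (NOTCH1, NRARP, HES1, HEY1) and 2 not called (JAG2, HEYL). The background there was 22.0% called higher and 21.0% lower. Groups did not overlap for 8 members, against 45.2% of all genes. In YH against ShNC, 4 members were higher (JAG1, NOTCH2, NRARP, HEY1), 1 lower (NOTCH3) and 5 not called, against a background of 17.4% higher and 15.1% lower. Groups did not overlap for 6 members, against 29.7% of all genes. The 3 comparisons share libraries pairwise, so they are not independent of each other and their values are set side by side only. In bulk RNA a change in the make-up of the cells and a change in RNA per cell cannot be told apart.

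**Figure D1:**
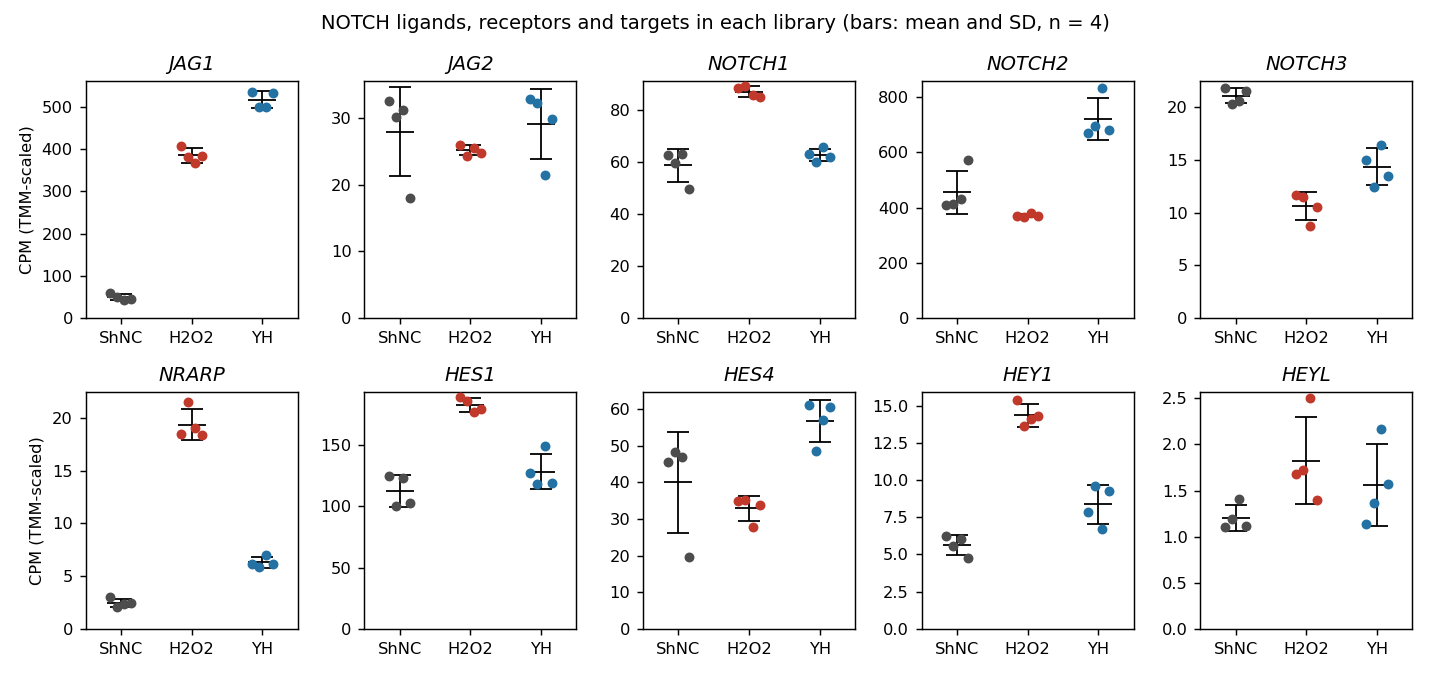
CPM of each member in each of the 12 libraries, 1 panel per gene with its own vertical axis from 0; points are libraries, horizontal bars the group mean and error bars the SD (n = 4). JAG1 climbs over the 3 groups, NRARP, HES1, HEY1 and NOTCH1 are highest in H2O2, and NOTCH2 and HES4 are highest in YH.

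JAG1, a membrane-bound ligand of the Jagged family, is encoded at chr20:10637684-10673999 on the minus strand of GRCh38 (ENSG00000101384). Its level was 60.7, 49.1, 43.1 and 46.0 CPM in the ShNC libraries. It was 407, 380, 367 and 384 CPM in the H2O2 libraries and 535, 499, 498 and 531 CPM in the YH libraries. No group overlapped another. JAG1 rose 7.74-fold with hydrogen peroxide, from 49.7 ± 7.74 to 384 ± 16.5 CPM (SD, n = 4; log2 difference 2.95 ± 0.09 SE, edgeR adjusted p = 1.4e-12). It was higher again, 1.34-fold, in YH at 516 ± 19.9 CPM (log2 0.42 ± 0.09, edgeR adjusted p = 0.000822). The ligand was thus highest in the libraries labelled as the knockdown, at 10.4 times its level in ShNC (log2 3.38 ± 0.09, edgeR adjusted p = 7.7e-12).

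JAG2, the other Jagged ligand (chr14:105140981-105168824, minus strand, ENSG00000184916), did not pass the test in any comparison. Its level was 32.6, 30.1, 31.2 and 18.0 CPM in ShNC, 26.0, 24.3, 25.5 and 24.8 CPM in H2O2, and 32.8, 32.3, 21.4 and 29.8 CPM in YH. The lowest value of ShNC and the lowest of YH came from the mitochondria-rich pair (ShNC replicate 4 and YH replicate 3). The log2 difference was -0.15 for H2O2 against ShNC (95% interval -0.50 to 0.20, edgeR adjusted p = 0.47) and 0.21 for YH against H2O2 (-0.14 to 0.56, adjusted p = 0.324). Without that pair JAG2 was called lower in H2O2 than in ShNC (log2 -0.32, edgeR adjusted p = 4.53e-06) and higher in YH than in H2O2 (0.33, adjusted p = 3.06e-06). Leaving out ShNC replicate 4 alone gave -0.32 (adjusted p = 0.0255). Of the 40 other genes tested around JAG2, 14 rose and 0 fell under hydrogen peroxide, with a median log2 difference of 0.26, and the rest were not called. In YH against H2O2 20 of them were lower and 0 higher, with a median of -0.35. With that regional shift removed JAG2 was called in both comparisons (-0.45, limma adjusted p = 0.00237, and 0.62, limma adjusted p = 0.000187).

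The 3 receptors moved in different directions. NOTCH1 (chr9:136494433-136545786, minus strand, ENSG00000148400) had 62.6, 59.5, 62.9 and 49.5 CPM in ShNC, 88.4, 89.0, 85.7 and 84.7 CPM in H2O2, and 63.1, 60.1, 65.6 and 61.7 CPM in YH. All H2O2 libraries lay above all libraries of both other groups, and ShNC and YH overlapped. NOTCH1 rose 1.48-fold with hydrogen peroxide (log2 0.57 ± 0.07, edgeR adjusted p = 1.1e-05) and was 0.47 lower on the log2 scale in YH than in H2O2 (-0.47 ± 0.07, adjusted p = 8.1e-05). Between YH and ShNC the difference was 0.09 (95% interval -0.06 to 0.25, edgeR adjusted p = 0.355).

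NOTCH2 (chr1:119911553-120069626, minus strand, ENSG00000134250) was the receptor with the highest level. It had 409, 412, 430 and 572 CPM in ShNC, 369, 366, 379 and 371 CPM in H2O2, and 668, 696, 834 and 681 CPM in YH. The highest ShNC and the highest YH value were those of the mitochondria-rich pair, and the 3 groups did not overlap. NOTCH2 was 1.94-fold higher in YH than in H2O2 (log2 0.95 ± 0.10, edgeR adjusted p = 1.7e-06) and 1.58-fold higher than in ShNC (0.66 ± 0.10, adjusted p = 0.00012). Under hydrogen peroxide it fell by 0.30 on the log2 scale (-0.30 ± 0.10, edgeR adjusted p = 0.023). Without H2O2 replicate 1, 2 or 4 the fall was nearly the same size (-0.292, -0.287 and -0.293) and just missed the threshold (adjusted p = 0.0528, 0.0569 and 0.0519). Dropping the mitochondria-rich pair gave a smaller value that passed, -0.18 (adjusted p = 5.23e-06). The call was also lost once the shift of neighbouring genes was removed (-0.13, limma adjusted p = 0.417). The 50 other genes around NOTCH2 ran from -3.54 to 25.81 Mb from its start. Of these 14 fell and 8 rose (median -0.13), beside 22.6% and 23.9% of all genes. Near-identical partial copies of NOTCH2 lie on the same chromosome, and reads they share with it make its counts uncertain. Of these copies NOTCH2NLC was counted at 1.33 to 3.83 CPM in any library, fell under hydrogen peroxide (log2 -0.81 ± 0.20, edgeR adjusted p = 0.00407) and was higher in YH than in H2O2 (0.60 ± 0.21, adjusted p = 0.0285).

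NOTCH3 (chr19:15159038-15200981, minus strand, ENSG00000074181), a receptor best known from the muscle cells of vessel walls, fell with hydrogen peroxide. It had 21.8, 20.3, 20.6 and 21.5 CPM in ShNC, 11.7, 11.5, 8.75 and 10.5 CPM in H2O2, and 15.0, 12.4, 16.4 and 13.5 CPM in YH. No group overlapped another, and YH lay between the other two. The fall was 0.98 on the log2 scale (-0.98 ± 0.11, edgeR adjusted p = 1.4e-06). YH was higher than H2O2 (0.43 ± 0.11, edgeR adjusted p = 0.00367) and lower than ShNC (-0.55 ± 0.10, adjusted p = 0.000738). Of the 50 other genes around NOTCH3, 20 rose and 6 fell with hydrogen peroxide (median 0.27), and 4 were higher and 22 lower in YH than in H2O2 (median -0.26). With that shift removed its differences were -1.21 and 0.67. NOTCH1 and NOTCH3 therefore changed in opposite directions in the first 2 comparisons.

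NRARP encodes an ankyrin repeat protein that binds the NOTCH complex on DNA and is known as a feedback inhibitor of the pathway (chr9:137300482-137302251, minus strand, ENSG00000198435). It had 3.00, 2.09, 2.39 and 2.50 CPM in ShNC, 18.5, 21.5, 19.0 and 18.4 CPM in H2O2, and 6.16, 5.85, 7.01 and 6.19 CPM in YH. The groups were far apart, with YH between the other two. NRARP rose 7.78-fold with hydrogen peroxide (log2 2.96 ± 0.12, edgeR adjusted p = 1.9e-11), a rise close to that of JAG1. It was 1.62 lower on the log2 scale in YH than in H2O2 (-1.62 ± 0.11, edgeR adjusted p = 1.3e-08) and still 2.54-fold above ShNC (1.34 ± 0.12, adjusted p = 5.1e-07). JAG1 and NRARP thus had near-equal rises with hydrogen peroxide and opposite signs in YH against H2O2. The 37 other genes tested around NRARP, at the end of the long arm of chromosome 9, had a median of 0.36 under hydrogen peroxide. With that shift removed NRARP still rose by 2.60.

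HES1, a basic helix-loop-helix repressor and the target most often read as NOTCH output, lies at chr3:194136145-194138732 on the plus strand (ENSG00000114315). It had 125, 100, 123 and 103 CPM in ShNC, 189, 186, 177 and 179 CPM in H2O2, and 127, 118, 149 and 119 CPM in YH. Every H2O2 library was above every library of the other groups, and ShNC and YH overlapped. HES1 rose 1.62-fold with hydrogen peroxide (log2 0.69 ± 0.09, edgeR adjusted p = 8.3e-06) and was lower in YH than in H2O2 (-0.51 ± 0.09, adjusted p = 0.000201). The difference between YH and ShNC was 0.18 (95% interval from just under 0 to 0.37, edgeR adjusted p = 0.124).

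The genes around HES1, near the end of the long arm of chromosome 3, moved against it. Of the 50 other tested genes nearest in order, from -7.35 to 2.18 Mb from its start, 32 fell and 2 rose with hydrogen peroxide, with a median of -0.57. In YH against H2O2 29 of the 50 were higher and 2 lower, with a median of 0.53. With the shift of its neighbours removed the HES1 differences were 1.30 (limma adjusted p = 1.2e-07) and -1.05 (limma adjusted p = 2.08e-06), larger than the values above.

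**Figure D2:**
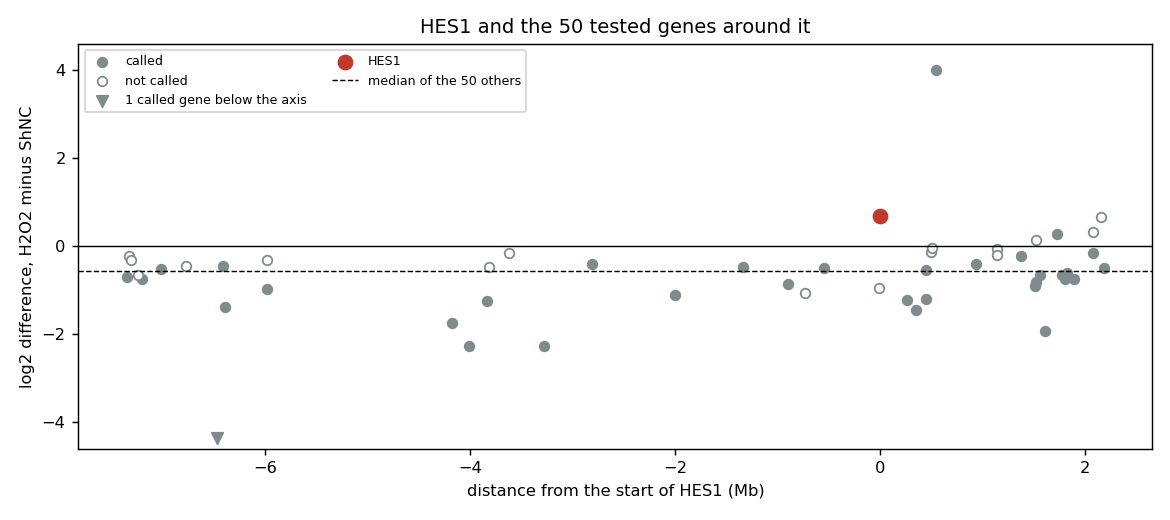
Log2 difference of H2O2 minus ShNC for HES1 (red) and the 50 tested genes nearest to it (grey, filled where called), against their distance from its start in Mb; the dashed line is the median of the 50, -0.57. HES1 stands above all but 1 of its neighbours, and a triangle marks 1 gene lower than the axis.

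HES4, a relative of HES1 that mice lack (chr1:998962-1000172, minus strand, ENSG00000188290), followed another pattern. It had 45.5, 48.3, 46.9 and 19.5 CPM in ShNC, 34.9, 35.3, 27.8 and 33.7 CPM in H2O2, and 61.0, 48.5, 57.0 and 60.6 CPM in YH. ShNC replicate 4 was far below the other ShNC libraries, and every YH library was above every library of the other groups. HES4 was 1.72-fold higher in YH than in H2O2 (log2 0.78 ± 0.22, edgeR adjusted p = 0.0116), a call lost when no filter on low counts was used (0.79, adjusted p = 0.0578). H2O2 against ShNC was not called (-0.28, 95% interval -0.76 to 0.20, edgeR adjusted p = 0.324), but without ShNC replicate 4 HES4 was lower in H2O2 (-0.52, adjusted p = 0.000153). YH against ShNC gave 0.50 (95% interval 0.03 to 0.98, edgeR adjusted p = 0.099) and 0.27 without that library (adjusted p = 0.0248). Without the mitochondria-rich pair the 2 values were -0.514 (adjusted p = 0.000709) and 0.267 (adjusted p = 0.0462). HES4 and HES1 had opposite signs in YH against H2O2, and both passed the test there.

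HEY1, a repressor of the HEY family (chr8:79764010-79767863, minus strand, ENSG00000164683), had the same signs as NRARP and HES1 in the first 2 comparisons. It had 6.27, 5.54, 6.01 and 4.78 CPM in ShNC, 15.4, 13.6, 14.1 and 14.3 CPM in H2O2, and 7.85, 9.61, 6.72 and 9.25 CPM in YH. The 3 groups did not overlap. HEY1 rose 2.55-fold with hydrogen peroxide (log2 1.35 ± 0.12, edgeR adjusted p = 2.1e-07), was lower in YH than in H2O2 (-0.78 ± 0.12, adjusted p = 7.0e-05) and remained above ShNC (0.57 ± 0.12, adjusted p = 0.00212).

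HEYL, the other HEY family member of the set (chr1:39624153-39639945, minus strand, ENSG00000163909), was the member with the lowest level. It had 1.10, 1.19, 1.41 and 1.12 CPM in ShNC, 1.68, 1.72, 2.50 and 1.40 CPM in H2O2, and 1.14, 1.37, 2.17 and 1.57 CPM in YH, and all 3 groups overlapped. The rise with hydrogen peroxide only just passed the test (log2 0.59 ± 0.23, edgeR adjusted p = 0.0457). It was lost in 10 of 20 alternative settings, among them leaving out ShNC replicate 1, 2 or 4 (adjusted p = 0.0957, 0.086 and 0.0833), H2O2 replicate 1, 2 or 3 (0.061, 0.0669 and 0.164) and YH replicate 2 or 4 (0.052 and 0.0564). YH against H2O2 gave -0.22 (95% interval -0.69 to 0.26, edgeR adjusted p = 0.472) and YH against ShNC 0.37 (-0.12 to 0.86, adjusted p = 0.24).

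**Figure D3:**
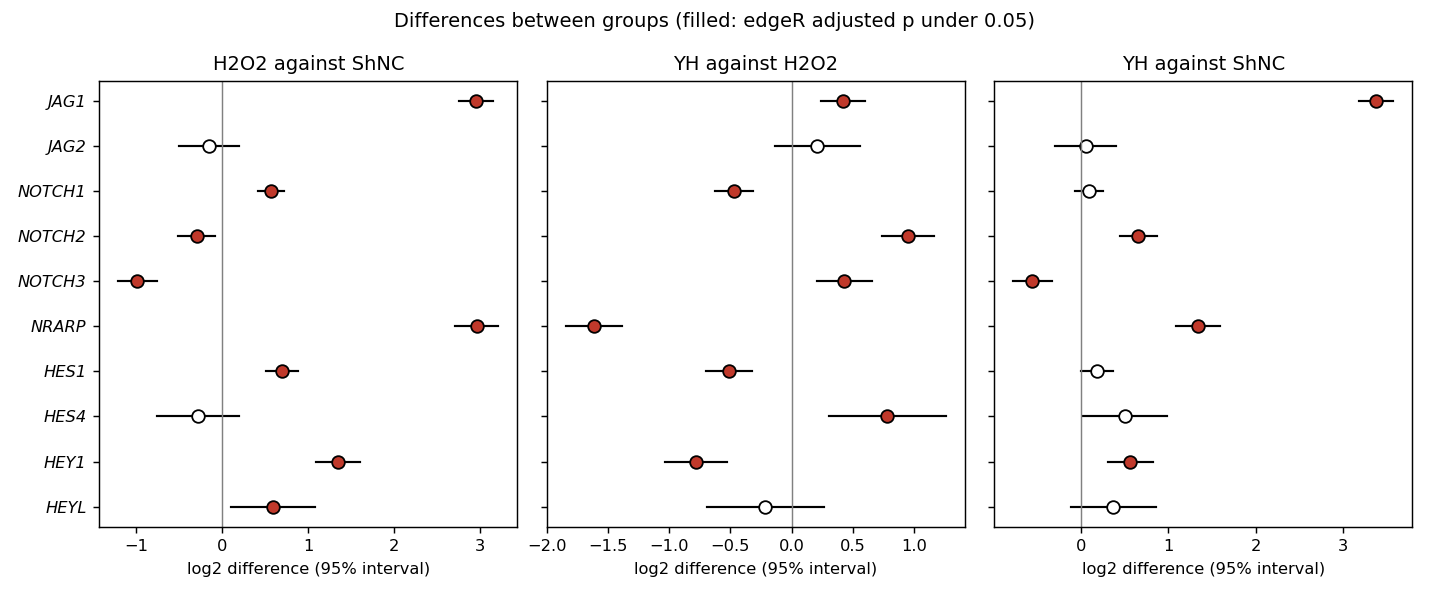
Log2 differences of the 10 members in the 3 comparisons with 95% intervals; filled points passed edgeR's test, open points did not. JAG1 lies right of 0 in all 3 panels, while NRARP, HES1, HEY1 and NOTCH1 lie right of 0 in the first panel and left of 0 in the second.

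Levels can be compared between genes only per length, here as CPM per kb of annotated exons. In ShNC the order was HES1 (54.7 CPM per kb), HES4 (35.8), NOTCH2 (27.1), NOTCH1 (5.65), JAG1 (5.35), JAG2 (4.37), NOTCH3 (2.24), HEY1 (1.75), NRARP (1.41) and HEYL (0.329). The libraries of HES4 and NOTCH2 overlapped there, as did those of NOTCH1 and JAG1, JAG1 and JAG2, and HEY1 and NRARP. In H2O2 no neighbours in the order overlapped. JAG1 stood second there at 41.4 CPM per kb after HES1 at 88.6, and NRARP stood above NOTCH1, at 10.9 against 8.38. In YH the top 4, HES1 (62.2), JAG1 (55.5), HES4 (50.8) and NOTCH2 (42.8), formed a chain of overlapping neighbours. Among the 3 member receptors NOTCH2 led in every group and NOTCH3 was last, at 22.1 and 1.13 CPM per kb in H2O2.

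**Figure D4:**
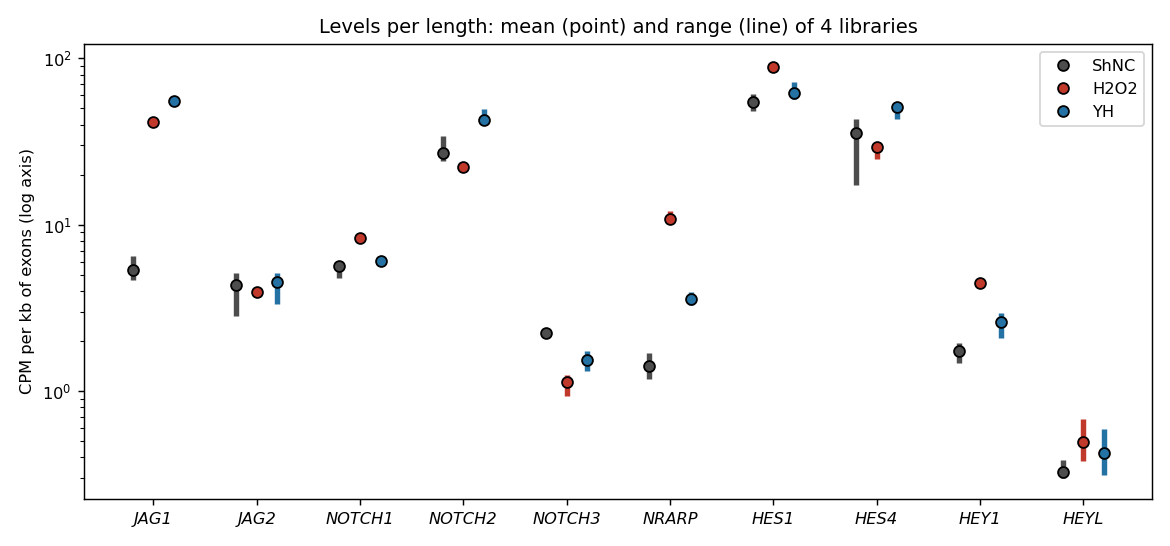
Level per length of each member by group on a log axis, in CPM per kb of exons; points are means and vertical lines the range of the 4 libraries. JAG1 moves from 5.35 to 41.4 and 55.5 CPM per kb over ShNC, H2O2 and YH, and NRARP from 1.41 to 10.9 and 3.56.

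The rest of the pathway was described from 8 lists of 58 genes arranged by role, of which 52 were tested. With hydrogen peroxide 24 were higher, 9 lower and 19 not called, with a median log2 difference of 0.20 against 0.00 for all genes. The background there was 23.9% called higher and 22.6% lower, which also stands beside each count by role under hydrogen peroxide below. In YH against H2O2 12 were higher, 13 lower and 27 not called, with a median that rounds to 0. These shares are close to the background of 22.0% higher and 21.0% lower. In YH against ShNC 20 were higher, 8 lower and 24 not called, with a median of 0.19 against 0.00 for all genes, beside the background of 17.4% higher and 15.1% lower. Without the mitochondria-rich pair 31 were higher and 14 lower with hydrogen peroxide, 14 and 16 in YH against H2O2, and 28 and 9 in YH against ShNC. Genes called in all grew as well, from 8971 to 11603, from 8288 to 11194 and from 6265 to 9146. Among pathway genes under the rule for naming, those gaining a call without the pair were CREBBP (0.246), DTX2 (0.224), DLK2 (-0.253), HDAC1 (-0.120), HDAC2 (-0.202) and TLE1 (-0.263) with hydrogen peroxide. They were DLK2 (-0.399), PSEN2 (0.362) and SNW1 (0.134) in YH against H2O2, and DTX3L (-0.144) and MIB1 (0.235) in YH against ShNC.

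Of 5 other genes of the HES and HEY families, listed by family, 2 were tested. Both rose with hydrogen peroxide and were lower in YH than in H2O2. HES6, a HES family member known to oppose HES1, had 2.67, 2.59, 2.39 and 0.999 CPM in ShNC, 18.6, 18.1, 14.4 and 16.7 CPM in H2O2, and 7.28, 6.02, 5.26 and 6.42 CPM in YH. Its groups did not overlap, and its differences were 2.98 ± 0.22 (edgeR adjusted p = 3.1e-08) and -1.44 ± 0.20 (adjusted p = 3.5e-05). HES7, the oscillating repressor of somite formation, went from 1.15 ± 0.155 to 3.73 ± 0.739 and 2.44 ± 0.812 CPM (SD, n = 4). It rose with hydrogen peroxide (1.69 ± 0.23, edgeR adjusted p = 1.5e-05). Its lower value in YH (-0.61 ± 0.21, edgeR adjusted p = 0.0303) was lost without H2O2 replicate 1 or 3 (adjusted p = 0.0505 and 0.109) and without YH replicate 1, 2 or 4 (0.0975, 0.0567 and 0.0859). HES2, HES5 and HEY2 were under 0.5 CPM in every library and were not tested.

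Of the other ligands and the remaining receptor 4 of 6 were tested, and 2 rose with hydrogen peroxide, DLL1 and NOTCH4, both under 1 CPM on average. DLL1, a Delta ligand, averaged 0.0874, 0.727 and 0.0665 CPM in ShNC, H2O2 and YH, with the ShNC and YH means near the floor of detection. DLL3, a Delta-family protein without signalling activity of its own, was higher in YH than in H2O2 (0.49 ± 0.10, edgeR adjusted p = 0.00062). It was also higher in YH than in ShNC (0.32 ± 0.10, adjusted p = 0.0171), a call lost without ShNC replicate 1 (0.29, adjusted p = 0.0549). With the shift of neighbouring genes removed that call was lost too (0.21, limma adjusted p = 0.107). The same setting called DLL3 lower with hydrogen peroxide (-0.54, limma adjusted p = 0.000317), where its neighbours had a median shift of 0.37. DLK2, a Delta-like membrane protein, was lower in YH than in ShNC (-0.44 ± 0.13, edgeR adjusted p = 0.0163). It no longer passed when ShNC replicate 1 was dropped (adjusted p = 0.0631), nor without YH replicate 1 or 4 (0.0539 and 0.0565).

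All 4 ubiquitin ligases that activate ligands by driving their endocytosis (MIB1, MIB2, NEURL1, NEURL1B) rose with hydrogen peroxide. Of all genes 23.9% were called higher there. NEURL1 and its paralog NEURL1B then parted. NEURL1 had 1.26 ± 0.391, 2.00 ± 0.312 and 7.48 ± 0.863 CPM in ShNC, H2O2 and YH, higher in YH than in H2O2 by 1.91 ± 0.19 (edgeR adjusted p = 9e-07). NEURL1B had 2.59 ± 0.653, 4.05 ± 0.551 and 1.39 ± 0.193 CPM, lower in YH by 1.54 on the log2 scale (-1.54 ± 0.20, edgeR adjusted p = 1.2e-05). MIB1, the main ligase for Jagged ligands, rose with hydrogen peroxide (0.52 ± 0.08, edgeR adjusted p = 8.9e-05) and was lower in YH than in H2O2 (-0.35 ± 0.08, adjusted p = 0.00249). The rise of NEURL1 with hydrogen peroxide (0.65 ± 0.20, edgeR adjusted p = 0.0165) was lost without H2O2 replicate 3 (adjusted p = 0.0542).

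Of 5 genes that add or extend sugars on the receptors 2 rose (MFNG, RFNG) and 2 fell (POGLUT1, LFNG) with hydrogen peroxide. MFNG averaged only 0.166 CPM in ShNC and 0.462 CPM in H2O2, with ShNC libraries at 0.0503 to 0.275 CPM, around the floor of detection. LFNG, a Fringe enzyme that lowers the response to Jagged ligands, fell (-0.38 ± 0.11, edgeR adjusted p = 0.00984). The fall was lost with library sizes alone as the scale (-0.31, adjusted p = 0.0821), and the groups overlapped. RFNG, another Fringe, rose (0.46 ± 0.10, edgeR adjusted p = 0.00202), but 21.6% of its exon bases lie in another gene. POGLUT1, which adds glucose, fell (-0.47 ± 0.09, edgeR adjusted p = 0.000407) and was higher in YH than in H2O2 (0.29 ± 0.09, adjusted p = 0.0142). The second call was lost without H2O2 replicate 2 (adjusted p = 0.0521). POGLUT1 lies among genes with median shifts of -0.63 and 0.59. With these removed both signs turned: 0.17 (limma adjusted p = 0.0892) and -0.30, which passed limma's test the other way (adjusted p = 0.00648).

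Receptor cleavage was split. Of 7 tested genes 3 rose (FURIN, ADAM17, PSEN2) and 3 fell (ADAM10, NCSTN, APH1A) with hydrogen peroxide. Of all genes 23.9% were called higher and 22.6% lower. FURIN, which makes the first cut in the secretory pathway, rose from 32.4 ± 3.15 to 77.9 ± 4.42 CPM and was 54.7 ± 2.87 CPM in YH (1.26 ± 0.08, edgeR adjusted p = 2.4e-09, and -0.51 ± 0.08, adjusted p = 5.8e-05). ADAM10, which makes the cut that follows ligand binding, fell from 230 ± 2.16 to 158 ± 5.11 CPM and was 190 ± 14.1 CPM in YH (-0.54 ± 0.06, edgeR adjusted p = 2.1e-06, and 0.27 ± 0.06, adjusted p = 0.00182). The γ-secretase subunit NCSTN fell (-0.75 ± 0.10, edgeR adjusted p = 1.1e-05) and was higher in YH than in H2O2 (0.80 ± 0.10, adjusted p = 7.7e-06). The genes around NCSTN had median shifts of -0.46 and 0.56, and with these removed its differences were -0.28 and 0.22. The subunit APH1A had differences of -0.45 and 0.56 among neighbours at -0.52 and 0.51. With the shift of neighbours removed APH1A did not pass limma's test in either comparison (adjusted p = 0.427 and 0.626). PSEN2 rose with hydrogen peroxide (0.43 ± 0.16, edgeR adjusted p = 0.0412) and was higher in YH than in ShNC (0.73 ± 0.16, adjusted p = 0.00249). The first of these calls was lost without ShNC replicate 1 or 2 (adjusted p = 0.116 and 0.124) and without H2O2 replicate 1, 2 or 3 (0.0621, 0.0886 and 0.098).

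Of 10 genes for receptor trafficking and turnover 5 rose (DTX1, DTX3, ITCH, LNX1, FBXW7) and 2 fell (DTX3L, DTX4) with hydrogen peroxide. The background was 23.9% higher and 22.6% lower. DTX1, a Deltex ubiquitin ligase and itself a known NOTCH target, had 2.50, 2.22, 1.71 and 1.95 CPM in ShNC, 27.3, 29.9, 24.2 and 26.7 CPM in H2O2, and 23.2, 20.7, 24.9 and 20.3 CPM in YH. It rose by 3.69 ± 0.12 (edgeR adjusted p = 2.7e-12) and, like JAG1, stayed high in YH (3.41 ± 0.12 against ShNC, adjusted p = 6.5e-11). Its lower value in YH than in H2O2 (-0.28 ± 0.10, edgeR adjusted p = 0.0389) was lost when any of H2O2 replicates 1, 2 and 4 or YH replicates 1, 2 and 4 was left out (adjusted p = 0.0563 to 0.128). Its relatives DTX3L and DTX4 fell with hydrogen peroxide (-1.31 ± 0.08, edgeR adjusted p = 1.9e-09, and -1.28 ± 0.12, adjusted p = 4.6e-07) and were higher in YH than in H2O2 (1.14 ± 0.08, adjusted p = 1.7e-08, and 0.91 ± 0.12, adjusted p = 2.4e-05). Genes around DTX3L, also on the long arm of chromosome 3, had median shifts of -0.80 and 0.70, and with these removed DTX3L differed by -0.51 and 0.43. LNX1, a ligase for NUMB, rose (0.71 ± 0.17, edgeR adjusted p = 0.00262) and was lower in YH (-0.85 ± 0.17, adjusted p = 0.000872), though 29.4% of its exon bases overlap another gene.

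Most genes of the nuclear complex did not pass the test. RBPJ averaged 118, 118 and 125 CPM in the 3 groups and was not called in any comparison. Of 8 genes of the complex 2 rose with hydrogen peroxide (MAML2, MAML3), none was called lower, and MAML2 was lower in YH than in H2O2. MAML3 averaged only 0.115 CPM in ShNC, near the floor of detection, and 0.470 CPM in H2O2. The co-activator MAML2 had 12.8 ± 2.78, 20.3 ± 0.610 and 10.9 ± 2.99 CPM in ShNC, H2O2 and YH, with differences of 0.66 ± 0.17 (edgeR adjusted p = 0.00517) and -0.89 ± 0.17 (adjusted p = 0.000679). In YH against ShNC the acetyltransferase CREBBP was higher (0.42 ± 0.12, edgeR adjusted p = 0.0148; 0.25 without YH replicate 3), and so was SNW1 (0.22 ± 0.06, adjusted p = 0.00858). Without a filter on low counts SNW1 gave nearly the same difference, 0.212, with an adjusted p = 0.053.

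Among 12 co-repressors 4 rose (TLE2, TLE3, TLE4, CIR1) and 2 fell (CTBP1, CTBP2) with hydrogen peroxide, and the Groucho-type TLE genes, which HES proteins recruit, divided. TLE4 had 9.90 ± 0.909, 32.5 ± 0.701 and 11.3 ± 2.02 CPM in ShNC, H2O2 and YH (1.71 ± 0.11, edgeR adjusted p = 4.2e-09, and -1.53 ± 0.11, adjusted p = 2.6e-08). TLE2 had 1.00 ± 0.202, 4.28 ± 0.821 and 1.30 ± 0.455 CPM (2.09 ± 0.24, edgeR adjusted p = 2.8e-06, and -1.73 ± 0.23, adjusted p = 2.1e-05). TLE3 rose with hydrogen peroxide (1.13 ± 0.09, edgeR adjusted p = 6.2e-08) and stayed above ShNC in YH (0.63 ± 0.09, adjusted p = 7.8e-05). TLE1 was highest in YH at 395 ± 19.6 CPM, against 212 ± 17.9 CPM in H2O2 (0.90 ± 0.08, edgeR adjusted p = 2e-07). CTBP1 fell with hydrogen peroxide (-0.65 ± 0.06, edgeR adjusted p = 1.7e-07) among neighbours at -0.43, and by -0.22 with their shift removed. CTBP2 fell too (-0.22 ± 0.05, edgeR adjusted p = 0.00293) and was higher in YH than in H2O2 (0.53 ± 0.05, adjusted p = 1.2e-06), though 34.7% of its exon bases overlap another gene. Its fall was lost with library sizes alone as the scale (-0.141, edgeR adjusted p = 0.0512). The deacetylases HDAC1 and HDAC2 were lower in YH than in ShNC (-0.53 ± 0.08, edgeR adjusted p = 0.000145, and -0.27 ± 0.07, adjusted p = 0.0112). The HDAC2 call was lost with library sizes alone as the scale (-0.245, edgeR adjusted p = 0.0703).

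**Figure D5:**
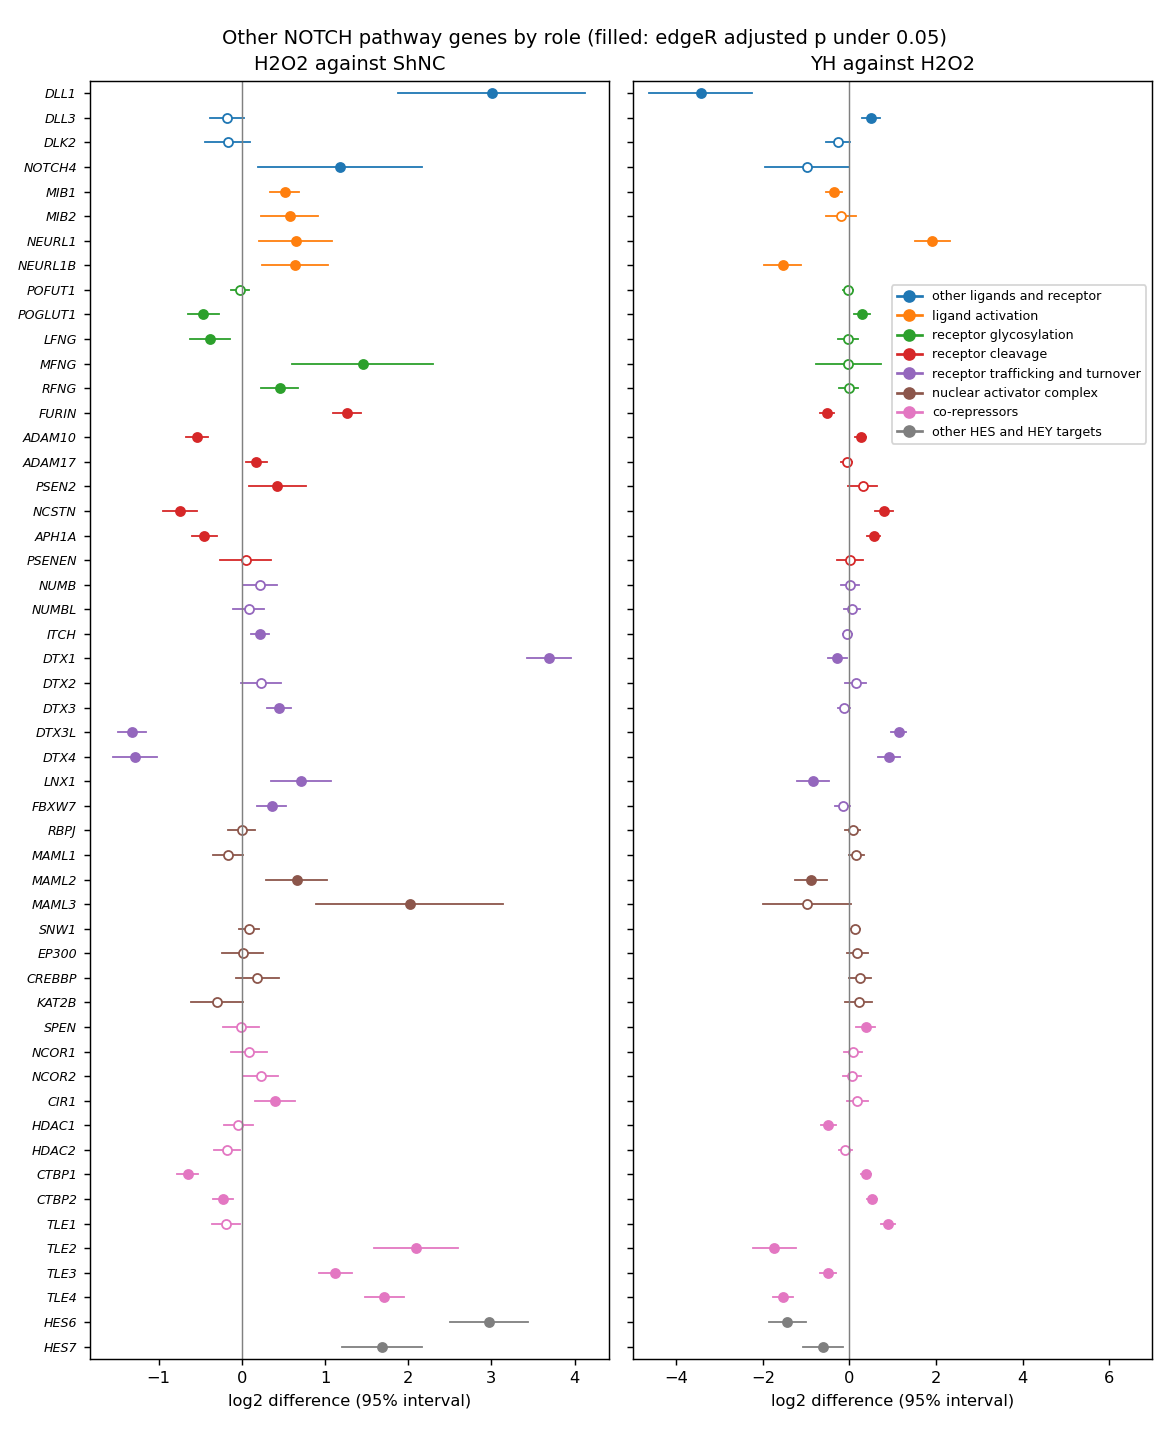
Log2 differences with 95% intervals of the 52 tested pathway genes outside the 10 members, coloured by role and filled where called, for H2O2 against ShNC (left) and YH against H2O2 (right). DTX1, HES6 and TLE2 lie far right on the left panel, and NEURL1 and NEURL1B lie on opposite sides of the right panel.

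For each member the 2 genes with the most similar profile over the 12 libraries were found by Pearson's r of log2 CPM. The 9831 candidates averaged 5 CPM or more and passed a filter against clone and pseudogene names. That filter also dropped every symbol ending in P or in P and digits, among them NRARP and YAP1. The 12 libraries fall into 3 groups that these genes share, so high values of r are common and no p is given. JAG1 was closest to HPCAL1 (r = 0.994) and ENC1 (0.993), and JAG2 to TUBB2B (0.969) and SMIM20 (0.958). NOTCH1 was closest to KLHDC7A (0.988) and MYO9B (0.988), NOTCH2 to EXOC4 (0.987) and ST13 (0.986), and NOTCH3 to MRPL16 (0.982) and TMEM106C (0.981). NRARP was closest to PDGFA (0.995) and SPECC1 (0.994), HES1 to THBS1 (0.982) and RHOB (0.973), and HES4 to DDR1 (0.965) and MAP2K3 (0.953). HEY1 was closest to DIRAS1 (0.991) and WNT5B (0.988). For HEYL the highest values were lower, 0.843 with SMIM29 and 0.841 with ERF. No other member was among the 2 closest genes of any member. NRARP, by its name, and HEYL, by its level, were not candidates and could not appear.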

How the data were processed

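RNA was measured by oligo(dT)-selected RNA-seq in HK-2 cells, per the labels (1 protocol speaks of kidney tissue). The authors deposited raw counts per gene for each library. HISAT2, featureCounts, Subread, DESeq2 and GRCh38 (hg38) are named in the submitters' processing notes. The versions, the annotation and the strand setting are not given in the sources read, so reads of overlapping genes cannot be told apart. Groups came from the titles. All 12 libraries were fitted with edgeR 4.0.16 in R 4.3.3: filterByExpr, TMM scaling, 1 mean per group, quasi-likelihood test, Benjamini-Hochberg adjustment over 19268 genes. Intervals are at 95%. The main edgeR fit was tested on simulated counts, for H2O2 against ShNC only. The other comparisons and the alternatives were not. CPM are TMM-scaled. Positions and exon lengths are from GENCODE 29.

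Alternatives were DESeq2 1.42.0, other scaling and filters, a replicate block, leaving out libraries, and removing the shift of neighbouring genes. That shift was, per library, the median deviation of log2 CPM from each gene's mean over the 12 libraries. It was taken over the 51 genes centred on a gene along its chromosome (25 on each side, fewer near chromosome ends). Values with the shift removed were tested with limma 3.58.1.

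Named pathway genes were, per role list and comparison, up to 2 called genes with the largest rise and 2 with the largest fall, with a mean of at least 1 CPM; genes of lower mean are given as levels. ADAM17, CIR1, DTX3, FBXW7, ITCH and MIB2, named to complete a count, were chosen after their values were seen. An item of the pathway is not reported here. The members and lists were chosen with earlier results of these data known. The same replicate number was not taken to pair libraries, since same-numbered libraries did not all deviate together.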

Additional observations from a re-analysis of the deposited data

Results flagged for a closer look

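In groups of 4 libraries a value was listed here when its gap to the nearest other library took more of the group's range than Dixon's 95% critical value, which chance does in about 1 of 20 groups; 129 groups were tested and 18 values met the criterion. ShNC replicate 4 and YH replicate 3 stood out by their share of mitochondrially encoded counts, 13.9% and 11.3%. ShNC replicate 4 was also the high library for NOTCH2 (572 CPM), CREBBP (121 CPM), MAML2 (17.0 CPM) and NCSTN (184 CPM). It was the low one for HES4 (19.5 CPM), HES6 (0.999 CPM), HDAC1 (222 CPM), LFNG (64.6 CPM) and TLE1 (208 CPM). YH replicate 3 was high for NOTCH2 (834 CPM) and DTX4 (11.1 CPM) and low for HDAC2 (158 CPM). Among the other libraries, H2O2 replicate 3 was high for CREBBP (129 CPM) and DTX2 (13.2 CPM), ShNC replicate 3 low for TLE2 (0.704 CPM), and YH replicate 2 high for TLE1 (425 CPM). Whether the mitochondrial share bears on these values was not tested.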

How the results depend on the processing

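The differences of the 10 members in 3 comparisons were recomputed under 20 alternatives, which gave 600 values. Of these, 574 kept their state of called or not called, 15 lost the call and 11 gained it. The sign turned in 0 values called in either fit. Uncalled differences could change sign, as in YH against ShNC for JAG2 (-0.112 to 0.181) and NOTCH1 (-0.009 to 0.147). The called differences of JAG1, NOTCH1, NOTCH3, NRARP, HES1 and HEY1 held in all 20. The number of members called lower under hydrogen peroxide, 2 with all libraries, was 1 to 4 when single libraries were left out and 4 with the mitochondria-rich pair (ShNC replicate 4 and YH replicate 3) dropped, where JAG2 and HES4 joined NOTCH2 and NOTCH3. Without that pair other pathway genes called lower numbered 14, against 9, those called higher 31, against 24, and all genes called 11603, against 8971. With the shift of neighbouring genes removed, the signs turned under hydrogen peroxide for APH1A (0.072) and POGLUT1 (0.171), and in YH against H2O2 for POGLUT1 (-0.298). With the replicate block 8536 genes were called for hydrogen peroxide, against 8971 without it, with 6 members higher and 2 lower in both fits. Same-numbered libraries correlated at -0.222 to 0.103 in their deviations, and a library's best match in another group carried its own number in 3 of 24 cases. HEYL, at 1.10 to 2.50 CPM, and the genes under 1 CPM are limited by depth.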
